A study of Mus musculus with 21 samples.

Results

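The genes of the double-strand break sensing pathway around the histone H2AX were followed by their RNA in cultured B cell precursors with and without an oncogene. The 9 genes are H2afx, Atm, Mdc1, Rnf8, Rnf168, Trp53bp1, Rif1, Paxip1 and Chek2. They were chosen by symbol for their role in the pathway, by a rule that uses no measured value but was written with earlier results of these data known, and are 9 of the 24421 genes of the deposited tables. All 9 passed the filter on low counts, which left 12786 genes for testing.

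The cells came from bone marrow of 53BP1-/- C57BL/6 mice and were kept in medium with 10 ng/ml recombinant mouse IL-7. On days 2 and 3 of culture they were transduced with the retroviral vector MIGR1 carrying no insert (EV), with MIGR1 carrying the fusion kinase BCR-ABL1p210, or with MIGR1 carrying the transcription factor C-MYC. Poly(A) RNA was taken 7 to 9 days after transduction, in duplicate experiments, which gave 2 libraries for each of the 3 conditions. EV shares with the oncogene conditions the 53BP1 deficiency, the culture and the virus, so no library here shows these genes in wild-type cells. The labels do not say whether the replicates came from separate mice, and p-values then measure the spread between these libraries, which may be technical.

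H2AX is a variant of histone H2A that is built into nucleosomes along the whole genome. When both DNA strands break, the kinase ATM phosphorylates H2AX around the break, and the modified histone, called γH2AX, is bound by the adaptor MDC1. MDC1 brings the ubiquitin ligases RNF8 and RNF168, whose mark on H2A recruits 53BP1 with its effectors RIF1 and PTIP, while the checkpoint kinase CHK2 carries the signal to the cell cycle machinery. In B cell precursors the same proteins act on the breaks made during immunoglobulin gene recombination. Most of this pathway is switched on by modification of proteins that are already present, which RNA levels do not measure.

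The libraries held 20687092 to 24095955 counts. The B precursor markers Cd79a and Vpreb1 were high in every library. The 10 markers of that list summed to 9115 and 8176 CPM in EV, 8338 and 7428 with BCR-ABL1, and 7066 and 5552 with C-MYC, where CPM are counts scaled to the library's size by the TMM method of edgeR. Of these 10, 8 fell and 0 rose in C-MYC against EV (median -0.79 on the log2 scale), and 2 fell and 0 rose in BCR-ABL1 against EV. Reads of the mouse C-MYC insert count on the gene Myc, which was at 181 and 137 CPM in EV, 343 and 348 with BCR-ABL1, and 1743 and 1233 with C-MYC. Bcr was at 103 and 142 CPM in EV, 149 and 146 with BCR-ABL1, and 72.3 and 76.0 with C-MYC. Abl1 was at 209 and 228, 269 and 248, and 181 and 165 CPM in the same order. Neither gene passed the test used below in BCR-ABL1 against EV, so these counts do not check the BCR-ABL1 insert. The markers of other cells were not spread evenly. The 9 myeloid markers summed to 1256 and 1131 CPM in EV, 141 and 158 with BCR-ABL1, and 193 and 332 with C-MYC, and all 9 fell in both oncogene conditions. The 5 stromal markers summed to 103 and 156 CPM in EV and to between 1.75 and 6.03 in the other libraries, with Cxcl12 at 0 counts in both C-MYC libraries. The 7 T and NK markers summed to 168 and 216 CPM in EV and to between 53.9 and 131 elsewhere, where most of it was Lck. The erythroid list reached at most 1.75 CPM, with Hba-a1 at 0 counts in every library. The part of these cells, and of the fall of the B precursor markers with C-MYC, in any difference against EV was not tested. In bulk RNA, fewer cells of a type and less RNA per cell cannot be told apart.

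The promoters of 7 of the 9 genes were found in the RefSeq table of GRCm38.p6, each as 250 bases before to 50 bases after the start of transcription. H2afx and Rif1 have no entry there. Of the 7, 3 are shown, for the following reasons. Mdc1 was the member nearest the threshold between the oncogenes. Rnf168 was the only member whose call against EV changed when the replicate number entered the model. Chek2 was the only member beside Mdc1 with a match to an E2F word. Each promoter is written 5′ to 3′ along the strand of its gene. Capitals mark the words searched on both strands, which were the MYC E-box CACGTG, the E2F words TTTCCCGC, TTTGGCGC, TTTCGCGC and TTTGCCGC, and the CCAAT box.
Mdc1: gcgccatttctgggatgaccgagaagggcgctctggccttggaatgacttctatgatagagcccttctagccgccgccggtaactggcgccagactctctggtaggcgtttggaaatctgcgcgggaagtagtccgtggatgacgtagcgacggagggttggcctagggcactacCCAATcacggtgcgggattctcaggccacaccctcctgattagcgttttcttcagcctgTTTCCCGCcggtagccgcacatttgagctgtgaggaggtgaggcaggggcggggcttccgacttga
Rnf168: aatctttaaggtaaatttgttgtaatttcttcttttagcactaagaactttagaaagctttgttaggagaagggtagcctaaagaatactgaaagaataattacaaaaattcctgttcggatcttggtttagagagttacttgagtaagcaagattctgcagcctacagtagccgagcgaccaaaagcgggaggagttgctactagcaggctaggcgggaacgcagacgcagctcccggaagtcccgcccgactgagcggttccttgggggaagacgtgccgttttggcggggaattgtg
Chek2: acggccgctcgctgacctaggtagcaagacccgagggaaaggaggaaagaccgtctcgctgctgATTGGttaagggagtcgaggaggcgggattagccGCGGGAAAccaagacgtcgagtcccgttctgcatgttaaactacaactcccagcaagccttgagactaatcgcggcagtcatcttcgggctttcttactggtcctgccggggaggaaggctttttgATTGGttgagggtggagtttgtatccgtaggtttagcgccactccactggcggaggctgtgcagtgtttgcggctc
The Mdc1 window lies at chr17:35841248-35841547 on the plus strand, the Rnf168 window at chr16:32277211-32277510 on the plus strand and the Chek2 window at chr5:110839733-110840032 on the plus strand. TTTCCCGC begins 16 bases before the start in Mdc1, and in Chek2 its reverse complement begins 152 bases before the start. This word was found in 1.07% of the 32851 promoters of the table, and any of the 4 E2F words in 2.26%. CCAAT begins 75 bases before the start in Mdc1, it appears as ATTGG at 186 and 26 bases before the start in Chek2, and it was also found in Atm and Rnf8, against 37.4% of all promoters. CACGTG, held by 7.15% of all promoters, was found in none of the 7 windows, which says only that these letters are not there. The Rnf168, Trp53bp1 and Paxip1 windows held no match to any word.

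Few of the 9 genes passed the test between conditions, and their log2 fold changes ran from -0.50 to 0.42 in BCR-ABL1 against EV and from -0.47 to 0.38 in C-MYC against EV (the plot of CPM by library). Against EV, 1 of the 9 rose in BCR-ABL1 and 1 rose in C-MYC, in both cases Rif1, and 0 fell, by edgeR's quasi-likelihood test with a threshold of 0.05 on the Benjamini-Hochberg adjusted p. Among all genes tested, 5.08% rose and 12.0% fell in BCR-ABL1 against EV, and 18.6% rose and 24.5% fell in C-MYC against EV. Between the oncogenes, 0 of the 9 passed the test, where 11.9% of all genes were higher in BCR-ABL1 and 11.5% lower. At an unadjusted p below 0.05 the members counted 2, 1 and 1 in the same order, and all genes 31.2%, 52.0% and 37.4%. DESeq2 called 1, 1 and 1 among 13669, 14325 and 13014 genes it tested, and the edgeR shares are not its background. With the replicate number as a block in edgeR, Rif1 and Rnf168 rose in BCR-ABL1 against EV. With that block Rif1 rose in C-MYC against EV, and Mdc1 was lower in BCR-ABL1 than in C-MYC. Of all genes, 9.55% and 22.8% then rose against EV in the same order, and 16.5% were lower in BCR-ABL1 than in C-MYC.

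**Figure D1:**
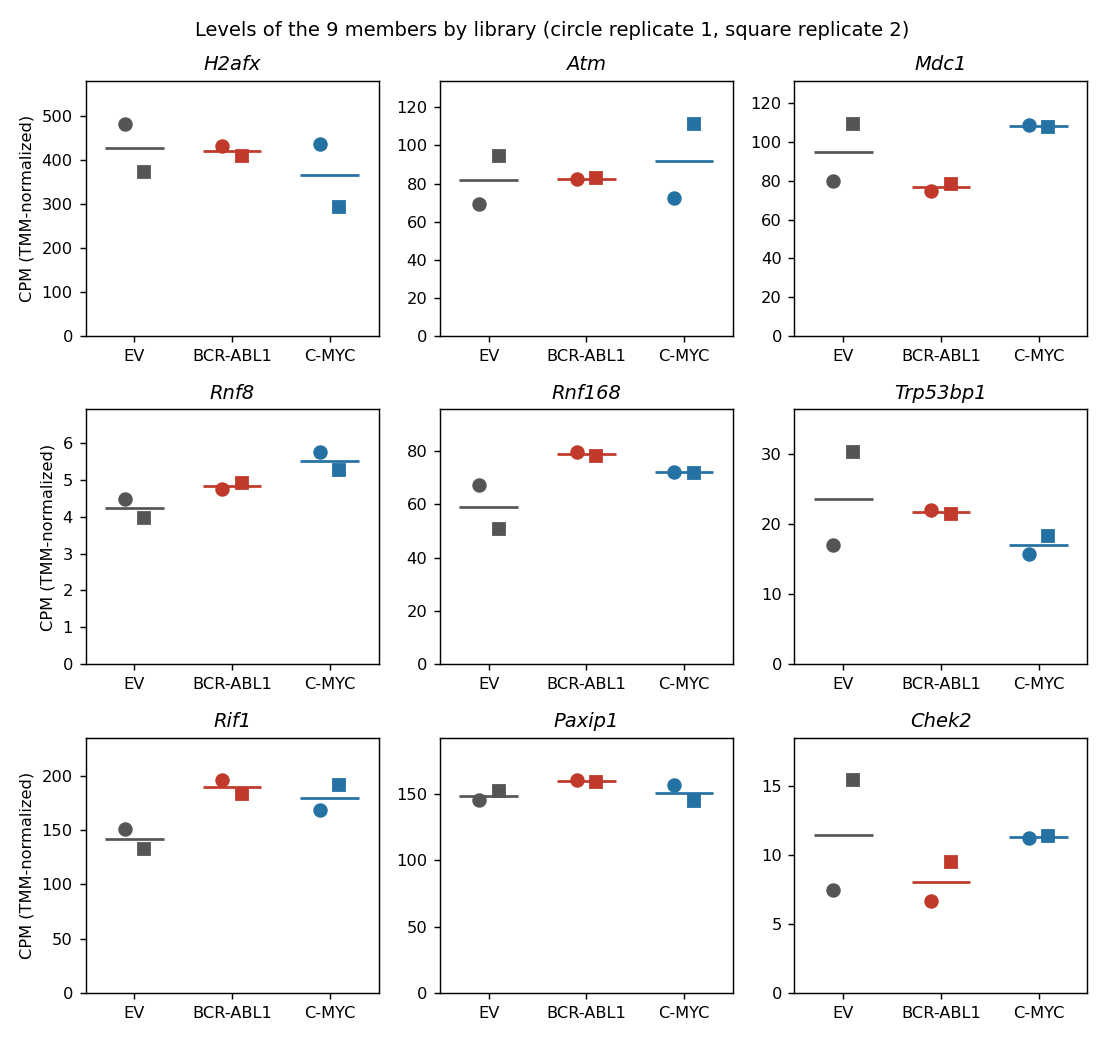
Level of each of the 9 genes in CPM (y axis, from 0) in the 2 libraries of EV, BCR-ABL1 and C-MYC (x axis), with horizontal lines at the means. The EV libraries lie far apart for Trp53bp1 and Chek2, whereas both oncogene conditions lie above EV for Rif1, Rnf168 and Rnf8.

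The median log2 fold change over the 9 genes was 0.01 in BCR-ABL1 against EV, 0.17 in C-MYC against EV and 0.07 in BCR-ABL1 against C-MYC. The medians over all 12786 genes were 0.00, -0.08 and 0.00. The libraries of the compared conditions did not overlap for 5, 3 and 6 of the 9 members, against 58.9%, 70.6% and 69.9% of all genes. The comparisons share libraries, so their counts are not independent of each other.

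H2afx encodes the histone itself and lies at chr9:44334694-44336077 on GRCm38, plus strand, as a single exon of 1384 bases in the GENCODE M21 annotation. Its level was 484 and 374 CPM in EV, 432 and 409 with BCR-ABL1, and 438 and 294 with C-MYC. The second C-MYC library was the lowest and the first EV library the highest, and every pair of conditions overlapped. The log2 fold change was -0.03 ± 0.20 (SE) in BCR-ABL1 against EV, with an adjusted p of 0.941 and a 95% interval from -0.48 to 0.42. In C-MYC against EV it was -0.23 ± 0.20, with an adjusted p of 0.376 and an interval from -0.68 to 0.22. The intervals leave room for a change of either sign. H2afx RNA is made in a form with and a form without a poly(A) tail, and only the former enters these libraries. The gene is also close in sequence to other H2A genes, and how shared reads were assigned is not given in the sources used here.

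Atm encodes the kinase that is activated at breaks, and it lies at chr9:53439149-53536740 on the minus strand. Its level was 69.4 and 94.5 CPM in EV, 82.5 and 82.7 with BCR-ABL1, and 72.3 and 112 with C-MYC. The BCR-ABL1 libraries lay between the EV libraries, and the C-MYC libraries lay on either side of the BCR-ABL1 libraries. The log2 fold change was 0.01 ± 0.22 in BCR-ABL1 against EV (adjusted p = 0.981) and 0.17 ± 0.22 in C-MYC against EV (adjusted p = 0.579).

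In EV and C-MYC, H2afx was lower in replicate 2 than in replicate 1 while Atm was higher. The genes whose log2 CPM followed H2afx most closely over the 6 libraries, by the Euclidean distance of values centred on each gene's mean, were 3110056K07Rik, Chchd10, Zscan21, Lypla2 and Zmiz2, at distances of 0.107 to 0.162 where the median gene was at 0.944. Those nearest to Atm were Heatr5a, D830031N03Rik, Mga, Myo9a and Mlh3, at 0.135 to 0.205 with a median gene at 0.931. Both sets were picked for their closeness over these same libraries, so their small distances and shared replicate differences follow from the choice. Chchd10 was at 487 and 357 CPM in EV and 409 and 281 in C-MYC. Mga was at 85.1 and 115 CPM in EV and 95.4 and 125 in C-MYC.

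Mdc1 encodes the adaptor that reads γH2AX, and it lies at chr17:35841515-35859670 on the plus strand, downstream of the promoter shown above. Its level was 80.1 and 110 CPM in EV, 74.9 and 78.4 with BCR-ABL1, and 109 and 108 with C-MYC. Both BCR-ABL1 libraries lay below all others, and both C-MYC libraries lay within the range of EV. In BCR-ABL1 against C-MYC the log2 fold change was -0.50 ± 0.15, or 0.709 times the level, with an interval from -0.85 to -0.14 and an adjusted p of 0.0535 in edgeR's test. With the replicate number as a block the adjusted p was 0.0203, at the same fold change. It passed in 7 of 14 alternative fits, DESeq2 among them, with adjusted p from 0.00429 to 0.281. Against EV the fold changes were -0.31 ± 0.15 in BCR-ABL1 (adjusted p = 0.224) and 0.19 ± 0.15 in C-MYC (adjusted p = 0.354). These values moved with the EV library left out: without EV replicate 1 the BCR-ABL1 value was -0.51, and without EV replicate 2 the C-MYC value was 0.44.

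Rnf8 and Rnf168 encode the ubiquitin ligases that act in turn after MDC1. Rnf8, at chr17:29614790-29644991 on the plus strand, was the member with the fewest reads, with 95 to 125 counts per library. Its level was 4.49 and 3.97 CPM in EV, 4.74 and 4.90 with BCR-ABL1, and 5.75 and 5.25 with C-MYC. The 3 conditions did not overlap and C-MYC was highest, but the fold changes against EV, 0.19 ± 0.23 with BCR-ABL1 and 0.38 ± 0.23 with C-MYC, missed the threshold (adjusted p = 0.625 and 0.212). The annotated gene Gm28043 runs over Rnf8 on the same strand and shares 13.2% of its exon bases, so the counts of Rnf8 are uncertain.

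Rnf168 lies at chr16:32277459-32301434 on the plus strand. Its level was 67.0 and 50.8 CPM in EV, 79.5 and 78.1 with BCR-ABL1, and 72.0 and 71.7 with C-MYC. All 4 oncogene libraries lay above both EV libraries, and the 2 libraries of each oncogene were nearly equal. The log2 fold change was 0.42 ± 0.15 in BCR-ABL1 against EV, with an interval from 0.08 to 0.76 and an adjusted p of 0.0943. With the replicate block it was 0.43 with an adjusted p of 0.0414. In C-MYC against EV it was 0.29 ± 0.15 (adjusted p = 0.153). Without EV replicate 1 both comparisons passed, at 0.64 and 0.50 with adjusted p of 0.00813 and 0.0102, and without EV replicate 2 neither did, at 0.24 and 0.10. The ligases did not differ beyond their error between the oncogenes, with intervals of BCR-ABL1 against C-MYC from -0.71 to 0.33 for Rnf8 and from -0.21 to 0.48 for Rnf168.

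Trp53bp1 encodes 53BP1, the protein missing from all of these cells, and lies at chr2:121193281-121271407 on the minus strand. Reads from the locus were present in each library, at 17.0 and 30.2 CPM in EV, 22.0 and 21.4 with BCR-ABL1, and 15.7 and 18.3 with C-MYC. The EV libraries held the highest of the 6 values and a value under both BCR-ABL1 libraries. The log2 fold change was -0.12 ± 0.26 in BCR-ABL1 against EV and -0.47 ± 0.26 in C-MYC against EV (adjusted p = 0.797 and 0.176). The sign and the call hung on EV: without EV replicate 2 the values were 0.36 and 0.01, and without EV replicate 1 they were -0.47 and -0.82, the latter with an adjusted p of 0.00413. Which exons the mutation removes is not given in the sources used here, so these counts do not check the genotype. On the opposite strand Tubgcp4 overlaps 15.0% of the exon bases of Trp53bp1, and the use of strand in counting is not stated.

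Rif1 encodes the effector that 53BP1 recruits to keep broken ends from being cut back, and lies at chr2:52072832-52122383 on the plus strand. Its level was 151 and 133 CPM in EV, 196 and 183 with BCR-ABL1, and 168 and 191 with C-MYC. All 4 oncogene libraries lay above both EV libraries. Rif1 rose by 0.42 ± 0.12 on the log2 scale in BCR-ABL1 against EV, or 1.33-fold, with an adjusted p of 0.0485. In C-MYC against EV it rose by 0.34 ± 0.12, or 1.27-fold, with an adjusted p of 0.0476. Between the oncogenes the difference was 0.07 ± 0.12, with an interval from -0.20 to 0.35. Both rises stood close to the threshold: each passed in 5 of 14 alternative fits, over which the fold change stayed between 0.33 and 0.52 in BCR-ABL1 and between 0.22 and 0.44 in C-MYC, and the adjusted p between 0.0164 and 0.270 and between 0.0198 and 0.230. Of the fits that left out 1 library, the one without EV replicate 1 kept each call and the other 5 lost it.

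Paxip1 encodes PTIP, which binds phosphorylated 53BP1, and lies at chr5:27740080-27791691 on the minus strand. Its level was 146 and 152 CPM in EV, 160 and 159 with BCR-ABL1, and 157 and 145 with C-MYC. It was the most even member, and its intervals were the narrowest, from -0.13 to 0.33 in BCR-ABL1 against EV and from -0.21 to 0.25 in C-MYC against EV. Within these intervals the sign of a change is not settled.

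Chek2 encodes CHK2, the checkpoint kinase that ATM activates, and lies at chr5:110839979-110874145 on the plus strand. Its level was 7.48 and 15.4 CPM in EV, 6.68 and 9.47 with BCR-ABL1, and 11.2 and 11.4 with C-MYC, from 141 to 369 counts. The EV libraries again lay far apart, and both BCR-ABL1 libraries lay below both C-MYC libraries. The log2 fold change was -0.50 ± 0.34 in BCR-ABL1 against EV and -0.02 ± 0.34 in C-MYC against EV (adjusted p = 0.361 and 0.966). Without EV replicate 1 the BCR-ABL1 value was -0.92 with an adjusted p of 0.0256, and without EV replicate 2 it was 0.12. In BCR-ABL1 against C-MYC it was -0.48 ± 0.34 (adjusted p = 0.343). These are the widest intervals among the 9, from -1.29 to 0.29 in BCR-ABL1 against EV.

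**Figure D2:**
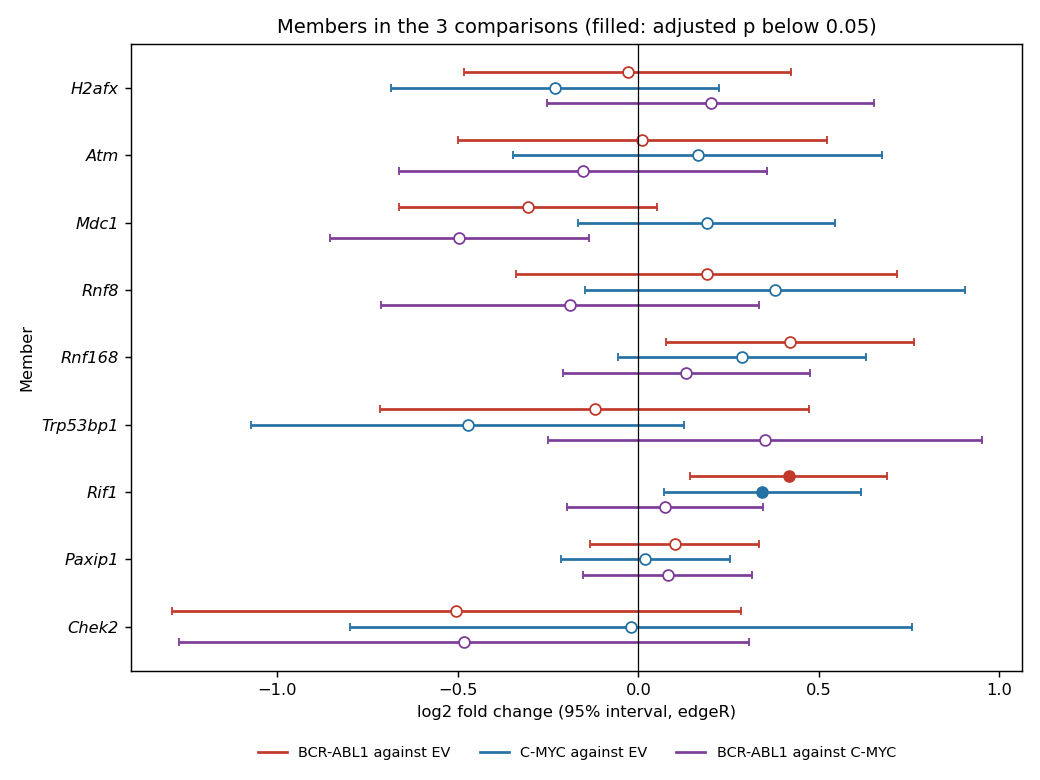
Log2 fold change (x axis) of each member (y axis) in the 3 comparisons, with 95% intervals from edgeR as bars and filled points where the adjusted p is below 0.05. Only Rif1 is filled, in both comparisons with EV, and the intervals of Chek2 and Trp53bp1 are the widest.

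The plot of fold changes with each library left out shows how much of this rests on the EV libraries. With 2 EV libraries, a fit on both lies between the fits on each, for these genes as for nearly any other. Only the distance between those fits is therefore read. In BCR-ABL1 against EV, Chek2 was at -0.92 without EV replicate 1 and 0.12 without EV replicate 2. Rnf168 was at 0.64 and 0.24 in the same order. Over all genes, the median absolute log2 difference between replicates reached 0.27 between the EV libraries, 0.14 with BCR-ABL1 and 0.18 with C-MYC. For Chek2 and Trp53bp1 in EV it was 1.03 and 0.83.

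**Figure D3:**
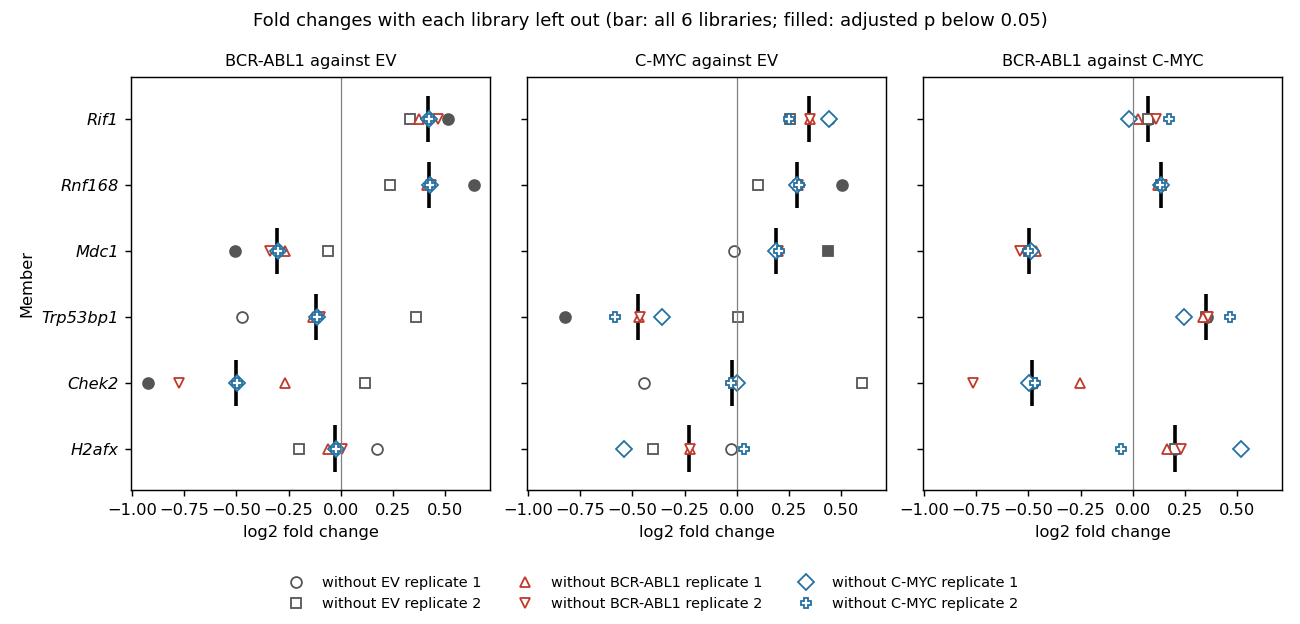
Log2 fold change (x axis) of 6 members (y axis) with all libraries (black bars) and with each library left out in turn (symbols), filled where the adjusted p is below 0.05. For Rnf168 the fit without EV replicate 1 gives 0.64 in BCR-ABL1 against EV and the fit without EV replicate 2 gives 0.24.

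Levels were compared between the genes per length, on the FPKM values that the authors deposited. H2afx was highest with a mean of 225 FPKM over the 6 libraries, and its lowest library, at 157, lay above the highest Rif1 library, at 121. Rif1, Paxip1 and Atm followed at means of 106, 87.1 and 69.1 FPKM, and neighbours among them overlapped. Mdc1 at 25.6 FPKM and Rnf168 at 12.8 FPKM stood apart from the genes above them. Trp53bp1 at 7.97, Rnf8 at 4.84 and Chek2 at 4.002 FPKM closed the order, and each overlapped the gene above it. By condition, the FPKM of H2afx averaged 246 ± 40.0 (SD, n = 2) without an oncogene, 234.5 ± 14.3 with BCR-ABL1 and 194 ± 52.3 with C-MYC.

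The order differed between FPKM and CPM per kilobase, which differ both in how reads were quantified and in the length used. On CPM per kilobase of all annotated exon bases, H2afx was still first at 293 and Rif1 second at 16.2, but Rnf168 moved from rank 6 to rank 3 at 15.7 and Atm from rank 4 to rank 6 at 8.27. Rnf8 was last at 0.414, below Trp53bp1 at 1.47 and Chek2 at 3.43. The genes from Rif1 to Atm then all overlapped their neighbours. On both scales the message of H2afx stood above those of the other members, as neither order placed another member within its range. Genes outside the members were not placed in these orders.

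**Figure D4:**
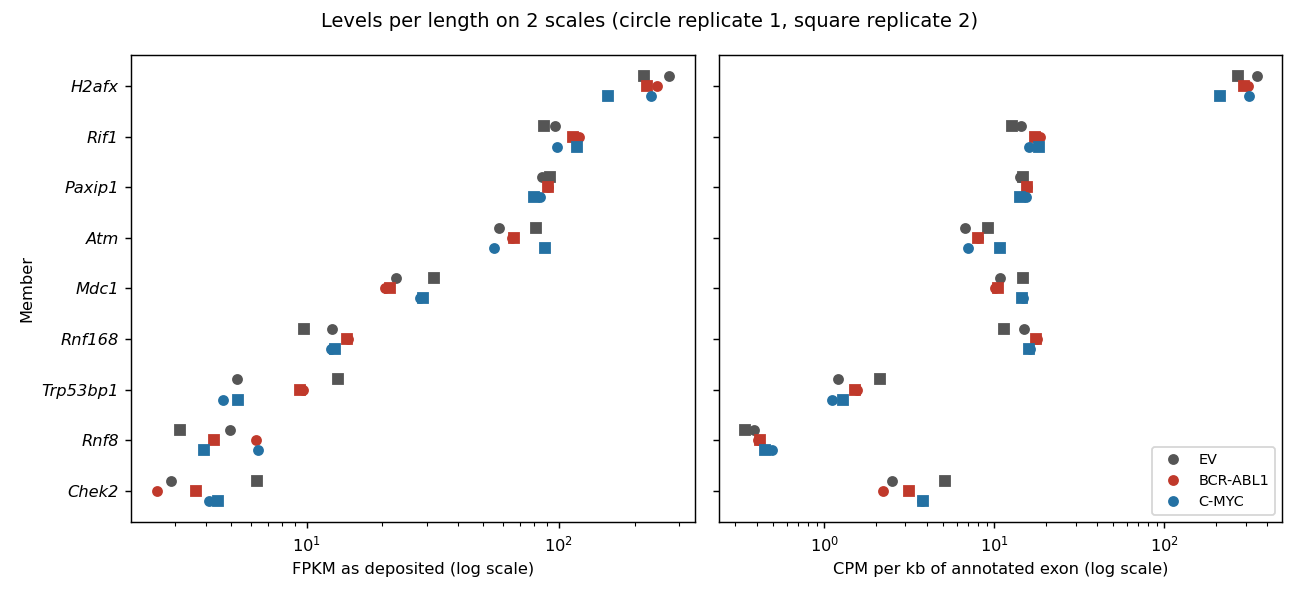
Levels of the 9 genes (y axis) in each library on the deposited FPKM (left x axis, log scale) and on CPM per kilobase of annotated exon (right x axis, log scale), coloured by condition. H2afx is highest on both, at means of 225 FPKM and 293 CPM per kilobase. By its mean, Rnf8 ranks above Chek2 on the left and below both Chek2 and Trp53bp1 on the right.

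The wider pathway was followed in a list of 52 genes, of which 51 passed the filter and L3mbtl1 did not. In BCR-ABL1 against EV 1 rose and 0 fell, in C-MYC against EV 13 rose and 5 fell, and in BCR-ABL1 against C-MYC 2 were higher and 3 lower. The shares of all genes given above are the background of these counts. At an unadjusted p below 0.05 the list counted 11, 26 and 14 genes in the same order. With the replicate number as a block, 4 of the list were higher and 3 lower in BCR-ABL1 against EV, where 9.55% of all genes were higher and 15.7% lower. In C-MYC against EV 18 were higher and 8 lower, beside 22.8% and 29.0% of all genes, and between the oncogenes 6 were higher in BCR-ABL1 and 7 lower, beside 17.0% and 16.5%. Beside the genes described below, Pagr1a, Ube2v2, E2f1 and L3mbtl2 gained a call with the block in at least 1 comparison, and no gene of the list lost one. Without the block L3mbtl2 already rose in C-MYC against EV, by 0.56 ± 0.13 on the log2 scale in edgeR's test (adjusted p = 0.0101). The list's median log2 fold changes were 0.18, 0.18 and 0.00. Scaling by library size alone turned the split in C-MYC against EV to 6 higher and 9 lower, and that between the oncogenes to 4 higher and 1 lower, as it moved the median of all genes from -0.08 to -0.19 in C-MYC against EV. Over all genes it turned the split against EV from 650 higher and 1530 lower to 396 and 1647 for BCR-ABL1, and from 2383 and 3132 to 1795 and 3782 for C-MYC. Of the calls described next for C-MYC against EV, those of Cdc25a, Setd8, Supt16, H2afv and Pml were kept in all 14 alternative fits, that of Dclre1c in 13, Mre11a in 10, Atr in 9, and Nbn and Eya1 in 6. Among the alternatives, the calls of Ssrp1, H2afz, Fam175a, Brcc3, Suv420h1, Trp53 and L3mbtl2 were followed only in the fit with the block, which kept them.

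The MRN complex binds broken ends and activates ATM. Of its 3 genes, 2 rose in C-MYC against EV, beside 18.6% of all genes. Mre11a, the nuclease, was at 34.6 and 48.4 CPM in EV, 42.0 and 49.5 with BCR-ABL1, and 63.8 and 67.5 with C-MYC, and it rose by 0.66 ± 0.18 on the log2 scale in C-MYC against EV (adjusted p = 0.0194). Nbn, which holds the complex to MDC1 and ATM, was at 26.5 and 33.9 CPM in EV, 33.7 and 37.6 with BCR-ABL1, and 43.2 and 42.8 with C-MYC, and it rose by 0.51 ± 0.16 (adjusted p = 0.0305). Both C-MYC libraries lay above all others for both genes. Rad50, the tether of the ends, was at 56.1 and 97.0 CPM in EV and 94.0 and 110 in C-MYC, a difference of 0.41 ± 0.24 that did not pass (adjusted p = 0.199) but did with the replicate block, at 0.45 with an adjusted p of 0.0375. None of the 3 passed in BCR-ABL1 against EV, with values of 0.14 for Mre11a, 0.24 for Nbn and -0.16 for Rad50. In BCR-ABL1 against C-MYC they were at -0.52, -0.27 and -0.57, with adjusted p of 0.0708, 0.242 and 0.125. With the block the adjusted p were 0.0145, 0.135 and 0.0227, so whether Mre11a and Rad50 passed between the oncogenes depended on the block.

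Among the kinases and the acetyltransferase that act beside ATM, Atr, the kinase of replication stress that can also phosphorylate H2AX, rose by 0.80 ± 0.25 in C-MYC against EV (adjusted p = 0.0347). It was at 32.4 and 51.5 CPM in EV and 61.3 and 85.2 in C-MYC. In BCR-ABL1 against C-MYC it was at -0.63 with an adjusted p of 0.108, and of 0.00549 with the block. Kat5, the acetyltransferase that activates ATM, was at 55.3 and 49.3 CPM in EV and 43.7 and 36.1 in C-MYC, a difference of -0.39 ± 0.14 with an adjusted p of 0.0581, and of 0.0180 with the block. The list holds 8 phosphatase genes that remove or are held to remove the phosphate of H2AX. In C-MYC against EV 1 of them fell and 0 rose, beside 24.5% and 18.6% of all genes. It was Eya1, a tyrosine phosphatase at low level, at 8.18 and 4.43 CPM in EV and 3.31 and 2.60 in C-MYC, with a log2 fold change of -1.09 ± 0.37 (adjusted p = 0.0476). In BCR-ABL1 against C-MYC its difference of 1.03 passed only with the block (adjusted p = 0.0854 without and 0.0132 with it). Ppp2ca, the catalytic subunit of PP2A, also passed only with the block, at 0.36 in BCR-ABL1 and 0.31 in C-MYC against EV (adjusted p = 0.0234 and 0.0207). Ppp4c, the catalytic subunit of PP4, did not pass, at 0.18 ± 0.11 in BCR-ABL1 and 0.09 ± 0.11 in C-MYC against EV.

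All 4 genes of the list of H2A variants and of FACT, the chaperone that exchanges H2A dimers, passed in C-MYC against EV, but not in 1 direction. In this comparison 18.6% of all genes rose and 24.5% fell, and a role of so few genes is not read against that share. Supt16, a FACT subunit, rose by 0.54 ± 0.10 from 243 and 246 CPM in EV to 359 and 351 in C-MYC, with an adjusted p of 0.00344. Its partner Ssrp1 rose by 0.44 and H2afz, a gene of the variant H2A.Z, by 0.38. H2afv, the other H2A.Z gene, fell by 0.78 ± 0.12, from 184 and 155 CPM to 99.5 and 97.4, with an adjusted p of 0.00166. H2afv was also higher in BCR-ABL1 than in C-MYC, by 0.68 ± 0.12 (adjusted p = 0.00665), and Supt16 was lower, at -0.35 ± 0.10 (adjusted p = 0.0350).

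The ubiquitin step gave the list's 1 call in BCR-ABL1 against EV. Ube2n encodes UBC13, the conjugating enzyme that works with RNF8, and was at 105 and 102 CPM in EV, 137 and 137 with BCR-ABL1, and 131 and 132 with C-MYC. It rose by 0.41 ± 0.10 in BCR-ABL1 (adjusted p = 0.0270) and by 0.35 ± 0.10 in C-MYC (adjusted p = 0.0223), and all 4 oncogene libraries lay above both EV libraries. The first call was kept in 8 of 14 alternative fits and the second in 7. Herc2, a partner of RNF8, did not pass in any comparison, at 79.5 and 150 CPM in EV. Rnf169, which competes with 53BP1 for the ubiquitin mark, was higher in BCR-ABL1 than in C-MYC by 0.55 ± 0.14 (adjusted p = 0.0246), and in C-MYC against EV it was at -0.38 with an adjusted p of 0.0558, and of 0.0385 with the block. The 4 deubiquitinases did not pass in any of the 3 comparisons, with log2 fold changes from -0.28 to 0.63. With the block Usp44 passed in C-MYC against EV, at 0.64, and Usp3 in BCR-ABL1 against C-MYC, at 0.41 (adjusted p = 0.0333 and 0.0172).

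In the BRCA1-A complex, which binds the ubiquitin chains, 2 of 7 genes rose in C-MYC against EV, beside 18.6% of all genes. They were Fam175a, its scaffold, at 0.51 ± 0.16, and Brcc3, its deubiquitinase, at 0.43 ± 0.12 (adjusted p = 0.0363 and 0.0237). In BCR-ABL1 against EV Brcc3 was at 0.40 with an adjusted p of 0.0614, and of 0.0264 with the block. Brca1 was at 0.23 ± 0.15 in BCR-ABL1 and 0.12 ± 0.15 in C-MYC against EV, and its partner Bard1 at 0.16 ± 0.16 and 0.06 ± 0.16, and none of these values passed.

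Around 53BP1, 2 of the 3 methyltransferase genes of its H4K20 mark passed in C-MYC against EV, 1 in each direction. Of all genes, 18.6% rose and 24.5% fell there. Setd8, which adds the first methyl group, rose by 0.89 ± 0.14 from 139 and 180 CPM in EV to 313 and 278 (adjusted p = 0.00216). Suv420h1, which adds the next, fell by 0.79 ± 0.14 (adjusted p = 0.00356), and its paralog Suv420h2 was at -0.29 with an adjusted p of 0.0870. With the block Suv420h1 also passed in BCR-ABL1 against EV, at -0.42, and Suv420h2 in BCR-ABL1 against C-MYC, at 0.38 (adjusted p = 0.0418 and 0.0338). Dclre1c, which encodes the nuclease Artemis, fell by 0.86 ± 0.20 (adjusted p = 0.00976). Among substrates of CHK2, Cdc25a, the phosphatase that drives entry into S phase, rose by 0.92 ± 0.11 (adjusted p = 6.83e-04), and Trp53 rose by 0.50 ± 0.14 (adjusted p = 0.0211). Pml, the organizer of nuclear bodies, fell by 1.37 ± 0.25, from 262 and 161 CPM in EV to 93.5 and 70.5 in C-MYC (adjusted p = 0.00388). With the block Pml also passed in BCR-ABL1 against EV, at -0.72, and in BCR-ABL1 against C-MYC, at 0.62 (adjusted p = 0.00267 and 0.00418, against 0.0777 and 0.110 without it), and Cdc25a passed in BCR-ABL1 against EV, at 0.37 (adjusted p = 0.0289). Cdc25a and Setd8 were also lower in BCR-ABL1 than in C-MYC, at -0.55 and -0.51 (adjusted p = 0.0105 and 0.0364). Of the list's calls between the oncogenes, that of H2afv was kept in 12 of 14 alternative fits. Those of Rnf169 and Cdc25a were kept in 10, and those of Setd8 and Supt16 in 7.

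**Figure D5:**
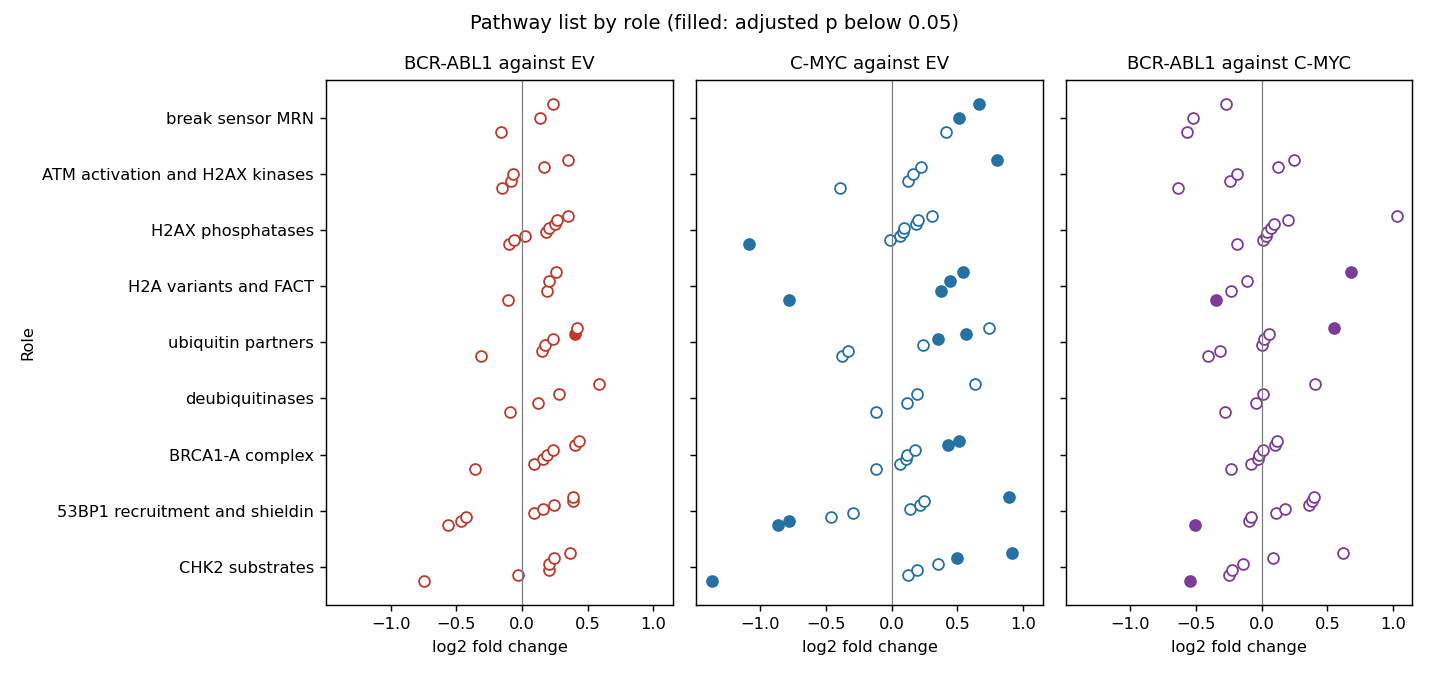
Log2 fold change (x axis) of the 51 tested genes of the pathway list, by role (y axis), in the 3 comparisons, filled where the adjusted p is below 0.05. In C-MYC against EV 18 points are filled, 13 to the right and 5 to the left of 0, and in BCR-ABL1 against EV 1 is filled.

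Some markers of dividing cells also rose. Of 9 proliferation genes, 5 rose in C-MYC against EV, with Ccnb1 at 0.65 and Pcna at 0.42, beside 18.6% of all genes. The others did not pass, with Mki67 at -0.23 and Top2a at -0.05, and Ccna2 and Rrm2 at 0.18 and 0.10. In BCR-ABL1 against EV 0 of the 9 passed, beside 5.08% of all genes higher and 12.0% lower. Their summed level was 4946 and 5452 CPM in EV, 5599 and 5412 with BCR-ABL1, and 5630 and 5703 with C-MYC. The part of cell division, of the B precursor markers' fall with C-MYC and of the non-B cells in EV in the changes of the pathway genes was not tested.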

How the data were processed

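Poly(A) RNA-seq of the 6 libraries was analysed. The ChIP-seq tracks were not used here. The authors aligned reads to GRCm38/mm10 with STAR 2.5.0 (the submitters' processing notes) and deposited unnormalized counts per gene symbol. The deposited FPKM values were calculated by the authors with StringTie 1.3.0. The counting program, its strand setting and its handling of shared reads are not given in the sources used here.

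Counts of genes past filterByExpr (12786 of 24421) were scaled by TMM and fitted in edgeR 4.0.16 (R 4.3.3) with all 6 libraries, which share 1 estimate of the spread. The quasi-likelihood test was used, and a Benjamini-Hochberg adjusted p under 0.05 made a call. SE is the absolute log2 fold change divided by the root of F, and 95% intervals use the t distribution with the fit's degrees of freedom. The common biological coefficient of variation was 0.151. DESeq2 1.42.0, limma 3.58.1 on log2(FPKM + 1) and log2(FPKM + 0.1), other scalings, filters and models, and leaving out each library were alternatives. Leaving out 1 library leaves a condition with 1 library, which is assumed to vary like the others.

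The labels number the replicates 1 and 2 in each condition. The deviations of same-numbered libraries from their group means correlated across genes at 0.273 (EV and BCR-ABL1), 0.236 (EV and C-MYC) and 0.204 (BCR-ABL1 and C-MYC). The numbers were therefore taken to pair the libraries, and a model with the replicate number as a block was fitted beside the main one. The main counts, intervals and figures carry no block. The calls that the block changed are named, with their values for the genes described. Replicates differed beyond sampling noise.

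Named were the 9 members, the 6 called pathway genes with the largest change in each comparison, 9 further pathway genes in every case, and the 5 nearest genes of H2afx and Atm. Fam175a, Brcc3, Ssrp1, H2afz, Suv420h1, Suv420h2, Trp53, Ppp2ca, Usp3, Usp44, Pagr1a, Ube2v2, E2f1, L3mbtl2 and the marker genes were named outside this rule, after their values were seen. The members and lists were chosen with earlier results of these data known. Positions and exon lengths are from GENCODE M21, and promoters from RefSeq, both on GRCm38. Python 3.11.15 with pandas 2.3.3 and matplotlib 3.10.9 was used. Exon lengths were found for 96.4% of the tested genes.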

Additional observations from a re-analysis of the deposited data

How the results depend on the processing

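Both calls of Rif1, and the missed calls of Rnf168 against EV and of Mdc1 between the oncogenes, stood near the threshold and changed side under several settings. Of the 1134 alternative values of single genes, 934 kept direction and side, 81 lost a call, 62 gained one and 57 changed sign, and unless stated the cause was not tested. With DESeq2's size factors the number of calls was 1 in BCR-ABL1 against C-MYC for the members and 3 in BCR-ABL1 against EV for the pathway genes, and the sign turned for Chek2 at 0.025 in C-MYC against EV and Herc2 at -0.006 in BCR-ABL1 against C-MYC. With library size only the number of calls was 0 in BCR-ABL1 against EV, 0 in C-MYC against EV for the members and 0 in BCR-ABL1 against EV for the pathway genes, and the sign turned for Atm at -0.062 in BCR-ABL1 against EV and Paxip1 at -0.1, Bard1 at -0.057, Ppp4c at -0.031 in C-MYC against EV. With the DESeq2 Wald test the number of calls was 1 in BCR-ABL1 against C-MYC for the members and 4 in BCR-ABL1 against EV, 8 in BCR-ABL1 against C-MYC for the pathway genes, and the sign turned for Chek2 at 0.035 in C-MYC against EV and Herc2 at -0.007 in BCR-ABL1 against C-MYC. With no filter on low counts the number of calls was 1 in BCR-ABL1 against C-MYC for the members and 2 in BCR-ABL1 against EV, 10 in BCR-ABL1 against C-MYC for the pathway genes. With limma on log2(FPKM + 1) the number of calls was 0 in BCR-ABL1 against EV, 0 in C-MYC against EV for the members and 9 in C-MYC against EV, 3 in BCR-ABL1 against C-MYC for the pathway genes, and the sign turned for Atm at -0.055, Trp53bp1 at 0.149 in BCR-ABL1 against EV and Paxip1 at -0.115, Bard1 at -0.046, Brca1 at -0.004, Ppp4c at -0.022 in C-MYC against EV and Rnf8 at 0.046 in BCR-ABL1 against C-MYC. With limma on log2(FPKM + 0.1) the number of calls was 0 in BCR-ABL1 against EV, 0 in C-MYC against EV for the members and 10 in C-MYC against EV, 3 in BCR-ABL1 against C-MYC for the pathway genes, and the sign turned for Atm at -0.055, Trp53bp1 at 0.178 in BCR-ABL1 against EV and Paxip1 at -0.116, Bard1 at -0.047, Brca1 at -0.003, Ppp4c at -0.023 in C-MYC against EV and Rnf8 at 0.056 in BCR-ABL1 against C-MYC. With only the 4 libraries compared the number of calls was 4538 in BCR-ABL1 against C-MYC for all genes and 0 in BCR-ABL1 against EV, 0 in C-MYC against EV, 1 in BCR-ABL1 against C-MYC for the members and 0 in BCR-ABL1 against EV, 14 in BCR-ABL1 against C-MYC for the pathway genes, and the sign turned for Chek2 at 0.035 in C-MYC against EV. With the replicate block the number of calls was 2 in BCR-ABL1 against EV, 1 in BCR-ABL1 against C-MYC for the members and 7 in BCR-ABL1 against EV, 13 in BCR-ABL1 against C-MYC for the pathway genes, and the sign turned for Chek2 at 0.053 in C-MYC against EV. Beside the gains of Rnf168 and Mdc1 the block changed no member's call, and it changed the pathway calls only by gains. By CPM per kilobase the rank was 6 for Atm, 9 for Rnf8, 3 for Rnf168, 8 for Trp53bp1, 4 for Paxip1, 7 for Chek2, where both the quantification and the length differ and the cause was not tested. Over the fits that left out each library in turn, all genes called numbered 618 to 4519 in BCR-ABL1 against C-MYC, 665 to 2729 in BCR-ABL1 against EV, 3329 to 6077 in C-MYC against EV, the members called numbered 0 to 4 in BCR-ABL1 against EV, 0 to 3 in C-MYC against EV, 0 to 1 in BCR-ABL1 against C-MYC, the pathway genes called numbered 0 to 8 in BCR-ABL1 against EV, 0 to 14 in BCR-ABL1 against C-MYC, 8 to 22 in C-MYC against EV. In BCR-ABL1 against EV the signs turned within these fits for H2afx (-0.201 to 0.173), Atm (-0.189 to 0.254), Atr (-0.122 to 0.546), Eya1 (-0.439 to 0.448), H2afv (-0.219 to 0.032), Mre11a (-0.075 to 0.406), Trp53bp1 (-0.472 to 0.358), Chek2 (-0.924 to 0.117), Bard1 (-0.012 to 0.36), Herc2 (-0.692 to 0.219), Rad50 (-0.494 to 0.295). In C-MYC against EV the signs turned within these fits for Atm (-0.175 to 0.451), Mdc1 (-0.015 to 0.435), Paxip1 (-0.034 to 0.083), Trp53bp1 (-0.824 to 0.006), Chek2 (-0.444 to 0.598), Bard1 (-0.111 to 0.26), Brca1 (-0.022 to 0.281), Herc2 (-0.782 to 0.2), H2afx (-0.54 to 0.036). In BCR-ABL1 against C-MYC the signs turned within these fits for Brca1 (-0.054 to 0.258), Herc2 (-0.329 to 0.477), Rif1 (-0.018 to 0.173), H2afx (-0.058 to 0.518), Atm (-0.432 to 0.194). The pathway counts and the genes outside the members under these alternatives were added after seeing the data. The SE of a member's log2 fold change ran from 0.10 to 0.34, and the parts of replicate spread and of depth in it were not tested.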

Other observations

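The deposited FPKM and the counts per kilobase of annotated exon differed by gene. The ratio of FPKM to CPM per kilobase, relative to that of the median tested gene, was 0.514 for H2afx, 0.549 for Rnf168, 0.781 for Chek2, 1.36 for Mdc1, 3.63 for Trp53bp1, 3.91 for Paxip1, 4.36 for Rif1, 5.59 for Atm and 7.80 for Rnf8. Atm was thus above 88.6% of the tested genes by FPKM and above 58.4% by CPM per kilobase. How StringTie values were combined for a gene symbol is not given in the sources used here.

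H2afx was among the genes richest in G and C, with 62.3% in its longest transcript, above 98.6% of the tested genes, while Rif1 had 39.3% and Atm 42.6%. Across 12319 genes, which are not independent replicates, the log2 ratio of replicate 2 to replicate 1 had a Spearman correlation with this content of -0.211 in C-MYC, 0.00959 in EV and -0.00335 in BCR-ABL1. H2afx differed between replicates by -0.58 in C-MYC, -0.37 in EV and -0.08 in BCR-ABL1, and Atm by 0.63, 0.45 and 0.00. The part of base composition in these differences was not tested.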
